A study of Mus musculus with 4 samples.

Results

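The receptors and ligands of the platelet-derived growth factor (PDGF) and fibroblast growth factor (FGF) families were followed in cultured mouse mammary cells with and without Deaf-1. They were chosen by gene symbol, as the probe sets annotated to 1 of 10 genes alone: Pdgfra, Pdgfrb, Pdgfa, Pdgfb, Pdgfc, Pdgfd, Fgfr1, Fgfr2, Fgf7 and Fgf10. All 10 genes were represented, by 23 of the 45101 probe sets on the array, and all 23 are accounted for. A probe set is a group of short oligonucleotides that reads 1 transcript, and the brightest of a gene, by its mean over all arrays, is called its leading probe set.

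The cells were primary mammary epithelial cells (MECs) of a Deaf-1-null female mouse at 8 weeks of age, immortalised with the E6/E7 proteins of a human papilloma virus. From them 2 clones, C1 and E1, were each infected with a retrovirus encoding Deaf-1 or with an empty control retrovirus, and RNA was taken after a 48 hour selection in puromycin. This gave 4 arrays, 2 with Deaf-1 (1 of clone E1 and 1 of clone C1) and 2 controls (1 of each clone). All cells, controls included, thus come from a Deaf-1-null animal, and each clone is 1 clone. Every p-value below measures the spread between these arrays, not between mice or further clones.

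Values are log2 expression after RMA, a method that removes background, equalises the arrays and reduces each probe set to a single value. A difference of 1 is therefore a 2-fold difference. Levels of different probe sets cannot be compared, so each value is read against the same probe set on other arrays and against a background level of 3.83. It was set so that 95% of the 44 olfactory receptor probe sets, whose genes are mostly active in the nose, fall under it. Deaf1 RNA (1448446_at) read 6.25 with Deaf-1 and 4.91 in control cells of clone E1, and 6.73 with Deaf-1 and 5.01 in control cells of clone C1, a mean difference of 1.53 (standard error 0.21). Each clone thus had more Deaf1 RNA on the array labelled Deaf-1. The control arrays were also above background, and whether this probe set lies in the deleted part of the gene was not tested. Arrays of the same clone correlated at 0.992 (E1) and 0.994 (C1) across probe sets, and arrays of different clones at 0.976 to 0.983.

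PDGF ligands are dimers made from A, B, C and D chains, and they signal through the receptor tyrosine kinases encoded by Pdgfra and Pdgfrb. Both receptors are best known from mesenchymal cells, such as fibroblasts, pericytes and smooth muscle, while epithelia are a common source of the ligands. FGF7 and FGF10 are made by stromal cells and act on an epithelial splice form of FGFR2, whose loss in mice blocks most mammary buds. FGFR1 is more widely expressed and is the main FGF receptor of fibroblasts. The probe set annotation used here does not separate the splice forms.

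The epithelial label was borne out only in part by the marker genes. The counts below cover each whole list, of which only some members are named. Of 10 luminal epithelial markers, 4 were above background on all arrays and 4 below it on every array. The luminal genes named next are not among the 4 above background, which are not named here. Cdh1, the epithelial cadherin, read 2.42 and 2.34 in E1 and 2.28 and 2.22 in C1 (each clone with Deaf-1, then control). Krt18, a luminal keratin, was below background on every array. The brightest Krt8 probe set, 1423691_x_at, read 4.01 and 3.84 in E1, just above background, and 3.46 and 3.57 in C1, below it. Of 9 basal and myoepithelial markers, 4 were above background throughout and 3 below it on every array. Among the 4 were Acta2 and Cnn1, which encode contractile proteins, and the 3 below background are not named. Of 9 measured fibroblast markers, 8 were above background on all arrays, and both named next are among these. Col1a1, a chain of type I collagen, read 12.82 and 12.76 in E1 and 12.55 and 12.49 in C1, and Thy1, a surface protein of fibroblasts, read 11.03 and 10.98 in E1 and 11.23 and 11.30 in C1. Pericyte, endothelial and leukocyte lists each had 2 markers above background on all arrays, of 6, 5 and 6. In bulk RNA, fewer cells that express a gene and less RNA per cell cannot be told apart.

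Single marker genes also differed between the clones at an unadjusted p under 0.01 (6.95% of all genes by their leading probe sets). They were 2 of 9 fibroblast, 2 of 9 basal, 1 of 10 luminal and 1 of 4 measured adipocyte markers, and 0 of the pericyte, endothelial and leukocyte lists. The genes named next were chosen after their values were seen. The mean log2 value of the 9 fibroblast markers was 10.61 and 10.65 in E1 and 10.57 and 10.46 in C1. Within that list Dpt (dermatopontin) read 8.44 and 8.45 in E1 and 5.42 and 4.71 in C1, while Lum (lumican) read 3.57 and 4.26 in E1 and 6.94 and 6.52 in C1. The contractile marker Cnn1 read 6.35 and 6.14 in E1 and 7.69 and 7.81 in C1. The mean of 10 luminal markers was 4.09 and 3.83 in E1 and 3.90 and 4.04 in C1. The adipocyte marker was Fabp4, a fatty acid carrier, with 10.56 and 10.59 in E1 and, below background, 3.77 and 2.57 in C1 (adjusted p = 0.0322, limma), and Adipoq, Lep and Cidec were below background on every array. The part of these differences in the results below was not tested.

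**Figure D1:**
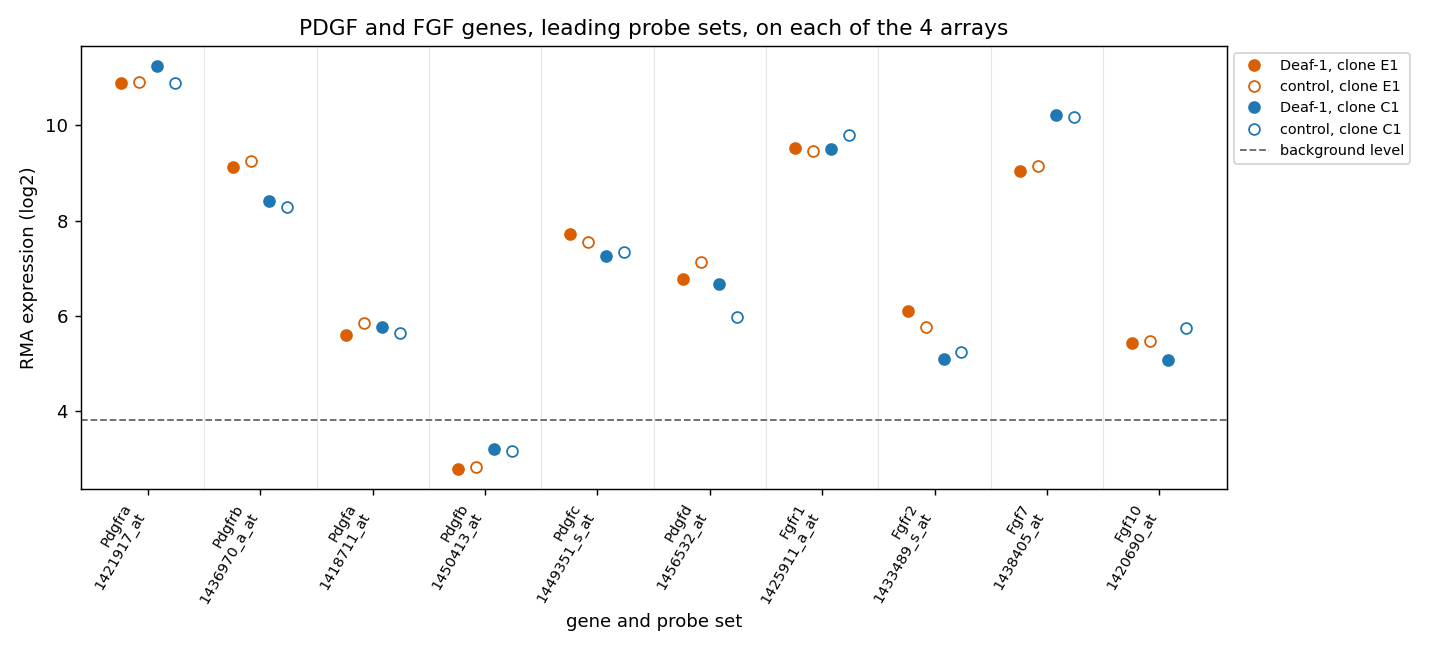
RMA expression (log2, vertical axis) of the leading probe set of each of the 10 genes on the 4 arrays, with Deaf-1 as filled and control as open circles, clone E1 in orange and clone C1 in blue. The dashed line is the background level of 3.83, above which 9 of the 10 leading probe sets lie on all arrays, with Pdgfb below it.

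Among the PDGF receptors, Pdgfrb read higher in clone E1 at an unadjusted p under 0.01, and the probe sets of Pdgfra did not share a direction. Pdgfrb, the receptor of PDGF-B and PDGF-D, read 9.12 with Deaf-1 and 9.25 with control in E1, against 8.42 with Deaf-1 and 8.29 with control in C1, at its leading probe set 1436970_a_at. Its other probe set, 1417148_at, read 8.46 and 8.42 in E1, against 7.77 and 7.62 in C1. At both probe sets each E1 array lay above each C1 array. The difference, E1 minus C1, was 0.83 (standard error 0.16, unadjusted p = 0.00513) at the first and 0.74 (standard error 0.14, unadjusted p = 0.00588) at the second. These are 1.78-fold and 1.68-fold higher levels in E1. The adjusted p from limma was 0.148 and 0.154, so neither passed 0.05.

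Pdgfra encodes the receptor that binds A, B and C chains. Its leading probe set 1421917_at read 10.89 with Deaf-1 and 10.91 with control in E1, against 11.25 with Deaf-1 and 10.88 with control in C1. The Deaf-1 array of C1 was the highest, and the other 3 arrays lay close together. A second, 1421916_at, read 9.02 and 8.69 in E1 and 8.86 and 8.70 in C1, and both Deaf-1 arrays lay above both control arrays. The difference between Deaf-1 and control there was 0.25 (standard error 0.15, unadjusted p = 0.164). The third, 1438946_at, read 5.31 and 5.75 in E1 and 6.33 and 5.83 in C1, and only there did the clones not overlap. Differences between the clones were -0.16, 0.076 and -0.55 at the 3 probe sets, with 95% intervals that all hold 0, from -0.62 to 0.30, from -0.33 to 0.48 and from -1.29 to 0.19.

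Of the PDGF ligands, Pdgfd read higher in E1, at an unadjusted p under 0.01 for 1 of its probe sets, and Pdgfb was below background. Pdgfd encodes a ligand that prefers the receptor PDGFRB. At 1426319_at it read 6.52 with Deaf-1 and 6.57 with control in E1, against 5.93 with Deaf-1 and 5.84 with control in C1, a difference of 0.66 (standard error 0.15, unadjusted p = 0.00940, adjusted p = 0.182, limma), or 1.58-fold. The leading probe set 1456532_at read 6.77 and 7.13 in E1, against 6.66 and 5.98 in C1, a difference of 0.63 with a wider 95% interval of -0.16 to 1.41. Here too the clones did not overlap, but their Deaf-1 arrays were close and their control arrays far apart. The remaining Pdgfd probe set, 1446691_at, was below background on every array.

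Pdgfc encodes a ligand that is activated by proteases such as the tissue plasminogen activator. At its probe sets 1449351_s_at and 1419123_a_at the difference between the clones was 0.34 (unadjusted p = 0.0927) and 0.30 (unadjusted p = 0.104). The first read 7.73 and 7.55 in E1, against 7.26 and 7.34 in C1, and the clones did not overlap at either. Pdgfa, which encodes the A chain, read 5.61 and 5.85 in E1, against 5.77 and 5.64 in C1 at 1418711_at, a difference of 0.021 with a 95% interval of -0.44 to 0.48. At 1449187_at the difference was -0.27 (-0.86 to 0.32). Arrays of the clones overlapped at both Pdgfa probe sets. Both probe sets of Pdgfb, the B chain, were below background on all arrays, between 2.70 and 3.22, so no change of this transcript could be measured.

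Fgfr2 read higher in clone E1, at an unadjusted p under 0.01 for 1 of its probe sets, and no probe set of Fgfr1 passed that level. At 1420847_a_at Fgfr2 read 6.03 with Deaf-1 and 5.84 with control in E1, against 4.62 with Deaf-1 and 4.82 with control in C1. The difference of 1.21 (standard error 0.17, unadjusted p = 0.00174, adjusted p = 0.115, limma) is 2.32-fold. The leading probe set 1433489_s_at, whose name ending marks oligonucleotides shared by several transcripts, read 6.10 and 5.78 in E1, against 5.10 and 5.24 in C1, a difference of 0.77 (standard error 0.18, unadjusted p = 0.0119), or 1.71-fold. The lowest E1 array was above the highest C1 array at both. The remaining probe set, 1443211_at, was below background throughout.

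Fgfr1 was read by 3 probe sets, of which 1425911_a_at and 1424050_s_at were above background on all arrays. The first read 9.53 and 9.46 in E1, against 9.51 and 9.80 in C1, a difference of -0.16 with a 95% interval of -0.61 to 0.29. At the second the difference was -0.21 (-0.60 to 0.18). At 1436551_at, near background, it was -0.41 (-1.02 to 0.20), and the Deaf-1 array of E1 was the lowest, at 3.82 against 4.49 with control in the same clone. All 3 differences had the same sign, the clones did not overlap at 1424050_s_at and 1436551_at, and none had an unadjusted p under 0.05.

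Of the FGF ligands, Fgf7 read lower in clone E1 at an unadjusted p under 0.01, and the arrays of Fgf10 overlapped between the clones. Fgf7, also known as keratinocyte growth factor, read 9.03 with Deaf-1 and 9.15 with control in E1, against 10.22 with Deaf-1 and 10.17 with control in C1, at its leading probe set 1438405_at. At 1422243_at it read 8.43 and 8.38 in E1, against 9.40 and 9.38 in C1. Arrays of the same clone were no more than 0.12 apart, and the clones did not overlap. The difference was -1.11 (standard error 0.15, unadjusted p = 0.00140, adjusted p = 0.110) at the first and -0.98 (standard error 0.14, unadjusted p = 0.00191, adjusted p = 0.118) at the second, by limma. In clone C1 the level was thus 2.15-fold and 1.98-fold that of E1.

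Fgf10, a ligand of the same receptor form, has 1 probe set, 1420690_at. It read 5.43 with Deaf-1 and 5.47 with control in E1, against 5.09 with Deaf-1 and 5.74 with control in C1. The 95% interval of the difference between the clones ran from -0.53 to 0.60. The C1 arrays were the highest and the lowest of the 4.

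Over the whole family, an unadjusted p under 0.01 was reached only between the clones, where this level was added after the data were seen. Of the 23 probe sets, 6 had an unadjusted p under 0.01 between the clones: both of Pdgfrb, both of Fgf7, 1 of Pdgfd and 1 of Fgfr2. Over all 45037 probe sets tested the share was 5.38%, and over those with a mean above background, as these 6 are, it was 10.1%, while 19 of the 23 had such a mean. Higher in E1 were 4 of the 6 (2.55% of all probe sets) and lower were 2 (2.83%). Probe sets of 1 gene are not independent readings. By leading probe sets alone, 2 of 10 genes passed, against 6.95% of 18193 genes: Pdgfrb was higher in E1 (3.48% of genes were) and Fgf7 lower (3.47%). Without retrovirus as a term 7 of the 23 passed in place of 6, and fewer did when the control array of C1 was also left out. No probe set of the family had an adjusted p under 0.05 in the fit with retrovirus as a term (0.109% of all probe sets). In the fit of all arrays without that term the same 6 probe sets had one, with values of 0.0127 to 0.0420, and so did 5.12% of all probe sets. The arrays of the clones did not overlap at 15 of the 23 probe sets. Over all probe sets this share was 47.1%, and over those above background 60.3%. Of the 10 leading probe sets 6 did not overlap, against 51.8% of all genes. The family's count of 13 of 19 above background is thus near that of the array as a whole. The median difference over the 23 probe sets was 0.021, against 0.0045 over all.

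**Figure D2:**
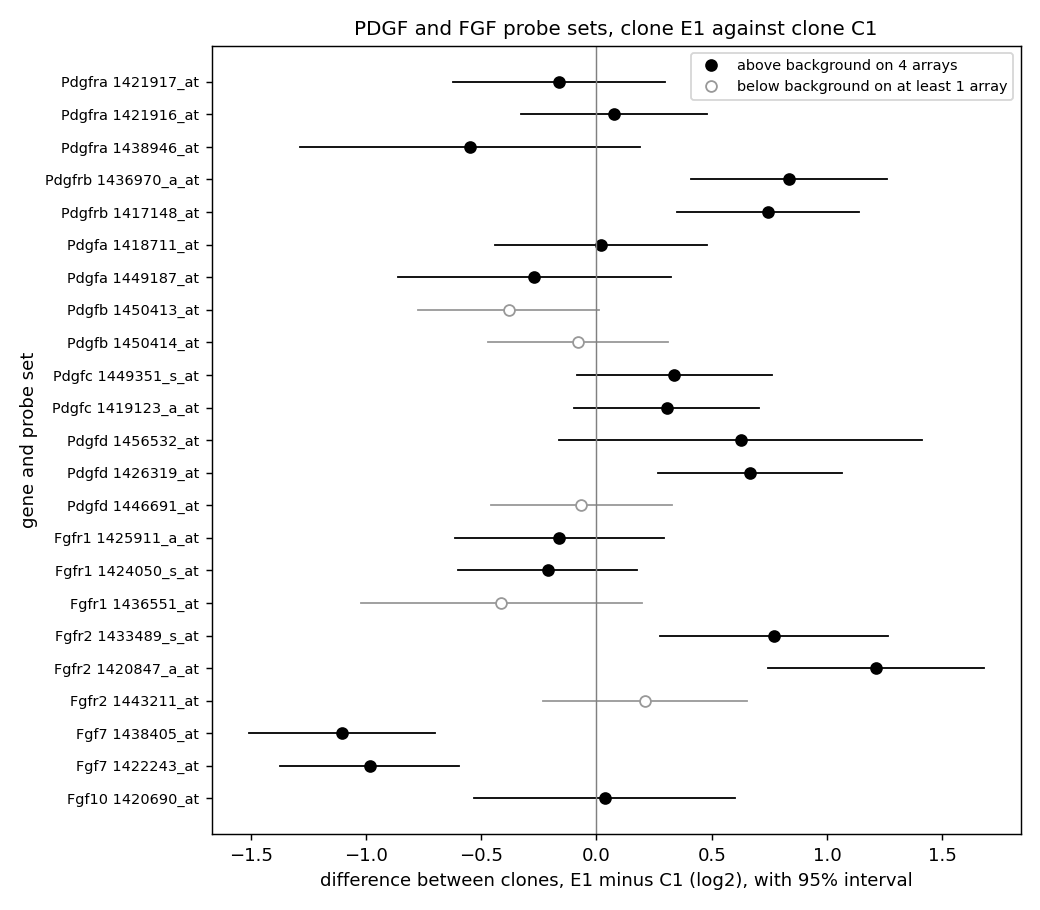
Difference between the clones (E1 minus C1, log2, horizontal axis) for each of the 23 probe sets, with the 95% interval from limma. Filled points were above background on all 4 arrays. Both Fgf7 probe sets lie left of 0, at -1.11 and -0.98, and those of Pdgfrb and the brighter ones of Fgfr2 and Pdgfd lie right of it.

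The promoters shown here are those of Fgf7 and Fgfr2, the genes with the largest differences between the clones in either direction at any probe set. By leading probe sets alone Pdgfrb (0.83) lay above Fgfr2 (0.77), but it had no window in this search. Shown beside them is the promoter of Pdgfra, a receptor gene whose window holds the short sequence that DEAF-1 is known to bind. Each runs 5′ to 3′ on the strand of the gene, from 250 bases before to 50 bases after its start (RefSeq, GRCm38.p6). Capitals mark TTCG, that short sequence, and CGAA, the same sequence on the opposite strand. The windows are chr2:126034408-126034707 (plus strand) for Fgf7, chr7:130266759-130267058 (minus strand) for Fgfr2 and chr5:75152001-75152300 (plus strand) for Pdgfra.
Fgf7: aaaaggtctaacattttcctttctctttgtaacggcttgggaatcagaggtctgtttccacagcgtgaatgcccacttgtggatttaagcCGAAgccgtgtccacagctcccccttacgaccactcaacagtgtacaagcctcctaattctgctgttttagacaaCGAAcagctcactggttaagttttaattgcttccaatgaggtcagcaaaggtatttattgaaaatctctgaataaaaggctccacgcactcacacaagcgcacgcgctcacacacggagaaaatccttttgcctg
Fgfr2: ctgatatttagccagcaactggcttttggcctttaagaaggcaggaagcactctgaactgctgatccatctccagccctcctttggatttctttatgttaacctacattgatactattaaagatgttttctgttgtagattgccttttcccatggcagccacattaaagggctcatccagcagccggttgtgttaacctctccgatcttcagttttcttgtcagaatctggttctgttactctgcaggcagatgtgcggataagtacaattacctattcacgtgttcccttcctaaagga
Pdgfra: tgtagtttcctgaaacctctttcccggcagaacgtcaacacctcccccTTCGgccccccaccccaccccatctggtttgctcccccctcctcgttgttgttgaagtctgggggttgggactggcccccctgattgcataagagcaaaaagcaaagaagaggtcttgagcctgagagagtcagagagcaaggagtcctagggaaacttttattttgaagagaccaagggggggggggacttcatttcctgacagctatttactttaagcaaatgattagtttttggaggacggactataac

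The Fgf7 window holds CGAA at 2 places, the Pdgfra window holds TTCG at 1 and the Fgfr2 window holds neither. No other motif was searched, and a match is only a match of letters. Of the 10 genes 7 had a window in this search, Pdgfa with 2, and of these 8 windows 3 held the sequence on either strand. A chromosome was left out of the search for the 10 genes, so a gene counted as lacking a window may have one there. Of all 32851 windows of this length, with no chromosome left out, 44.7% held the sequence.

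No difference between Deaf-1 and control cells was detectable in these genes at the precision of 4 arrays. None of the 23 probe sets reached an unadjusted p under 0.01 (0.0111% of all probe sets did, and 0.0275% of genes by their leading probe sets) or under 0.05 (0.433% did), and the smallest p of the family was 0.122, or 0.0903 with clone as a block in the model. The block changed no call in the family. Across the array, 11 probe sets passed that level with the block (0.0244%) and 5 in its absence. The largest difference, Deaf-1 minus control, was -0.35 at 1443211_at of Fgfr2, below background, and the next was -0.34 at Fgf10. The median over the 23 was 0.0015, against -0.0043 over all probe sets.

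The intervals show what size of change these arrays could have missed. With clone as a block the 95% interval of the Deaf-1 difference ran from -0.28 to 0.64 for Pdgfra, from -0.42 to 0.43 for Pdgfrb, from -0.44 to 0.37 for Fgf7 and from -0.40 to 0.59 for Fgfr2, each at its leading probe set. For Fgfr1 it ran from -0.56 to 0.34, for Pdgfc from -0.37 to 0.48 and for Pdgfa from -0.51 to 0.41. It was widest for Fgf10, from -0.91 to 0.22, and for Pdgfd, from -0.63 to 0.95. Without the block the intervals of genes that differ between the clones are wider, for example from -1.46 to 1.39 for Fgf7.

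The 3 largest changes within a clone were not matched in size and direction in the other clone. Pdgfd (1456532_at) had a change, Deaf-1 minus control, of 0.68 in C1 and of -0.35 in E1. At 1426319_at, which reads the same gene, the changes were -0.048 in E1 and 0.097 in C1. For Fgfr1 1436551_at the change was -0.67 in E1 and 0.039 in C1. For Fgf10 it was -0.033 in E1 and -0.66 in C1. Of the 10 leading probe sets only that of Fgf10 moved the same way in both clones, and of all 23 probe sets 7 did, while over the array the share was 39.3%. The Deaf-1 arrays did not overlap the control arrays at 4 of the 23, those of Fgf10, 1421916_at of Pdgfra and, below background, 1446691_at of Pdgfd and 1443211_at of Fgfr2. Over all probe sets this share was 18.9%.

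**Figure D3:**
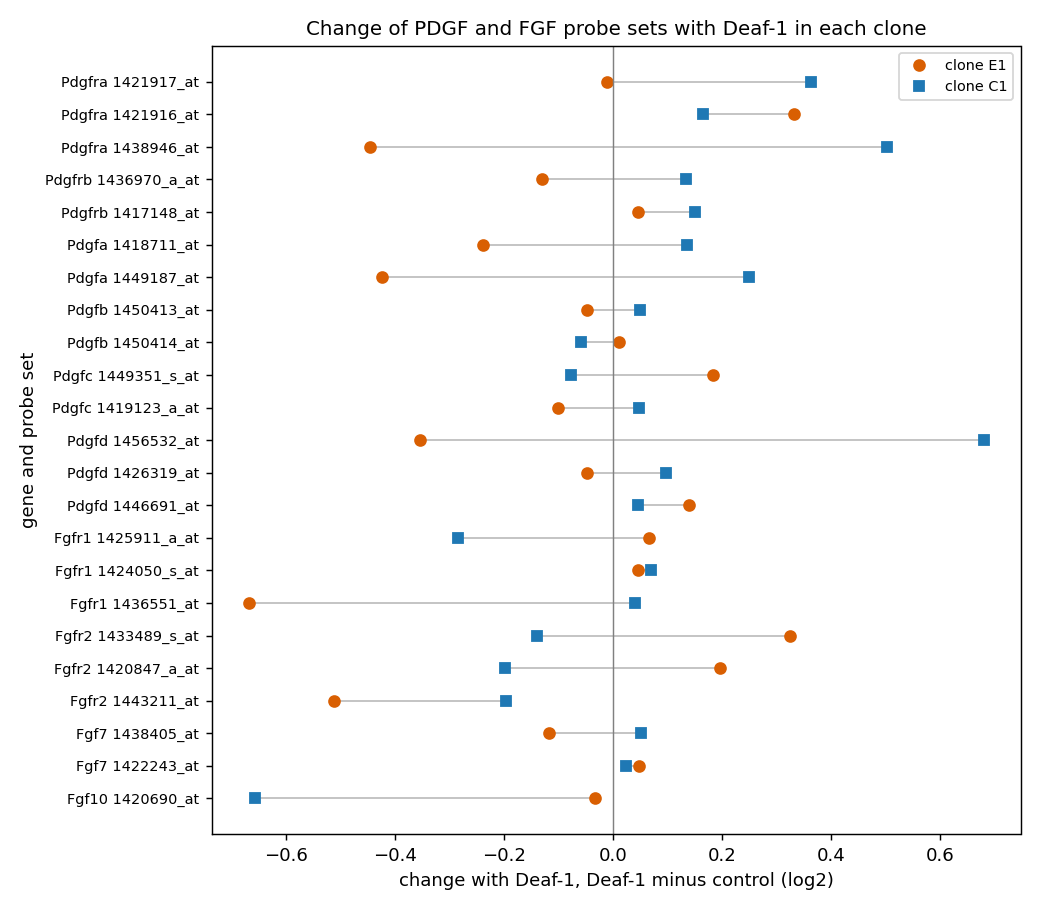
Change with Deaf-1 (Deaf-1 minus control, log2, horizontal axis) in clone E1 (orange circles) and clone C1 (blue squares) for each of the 23 probe sets, joined by a line. Most pairs straddle 0, and the longest line is that of Pdgfd 1456532_at, from -0.35 in E1 to 0.68 in C1.

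Most other FGF ligand genes were below background on some or all arrays, and the other receptor genes of both families had no unadjusted p under 0.01. Pdgfrl, a PDGF receptor-like gene, read 8.55 and 8.61 in E1, against 8.57 and 8.39 in C1. The other FGF receptor genes Fgfr3, Fgfr4 and Fgfrl1 were above background on all arrays, and Fgfr3 had the largest t of these in both comparisons, with an E1 minus C1 difference of 0.23 (unadjusted p = 0.325) and a Deaf-1 minus control difference of 0.19 (unadjusted p = 0.438). Of 20 other FGF ligand genes, 11 were below background on every array and 4 were above it on all. Fgf18, a ligand of mesenchymal FGF receptors, read 4.34 with Deaf-1 and 3.66 with control in E1, against 5.05 with Deaf-1 and 4.75 with control in C1, so that the control array of E1 was below background. Its difference between the clones was -0.90 (standard error 0.17, unadjusted p = 0.00528, adjusted p = 0.149, limma), and it was the only ligand of this list with an unadjusted p under 0.01, 1 of 20 against 6.95% of all genes. For Deaf-1 against control Fgf23, below background on every array, had the largest t of the list, with a difference of 0.28 (unadjusted p = 0.262). With clone as a block it was Fgf18, with a difference of 0.48 (unadjusted p = 0.0443).

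Among 16 genes for co-receptors, carriers and ligand-activating proteases, E1 was higher at 3 and lower at none, by an unadjusted p under 0.01, while 3.48% of all genes were higher at that level and 3.47% lower. Gpc1 encodes glypican-1, a heparan sulfate proteoglycan that binds FGFs. It read 8.60 and 8.53 in E1, against 7.43 and 7.37 in C1, a difference of 1.17 (standard error 0.14, adjusted p = 0.0990, limma). The others, named after their values were seen, were Nrp2, a neuropilin (0.96), and Pcsk5, a proprotein convertase that read 4.72 and 4.77 in E1 and was below background in C1. Plat, which encodes the tissue plasminogen activator, read 8.40 and 8.42 in E1, against 8.68 and 8.70 in C1. Klb, a co-receptor of endocrine FGFs that was below background on every array, had the largest t of the list for Deaf-1 against control, with a difference of 0.21 (unadjusted p = 0.230).

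All 20 measured genes of receptor adaptors and proximal signalling were above background on every array, and 1 was higher and 1 lower in E1 at an unadjusted p under 0.01. This share of 10% is near the 6.95% of all genes and the 10.1% of all probe sets with a mean above background. Crkl, an adaptor of tyrosine kinases, read 7.18 and 7.20 in E1, against 8.01 and 7.91 in C1, a difference of -0.77 (standard error 0.15, adjusted p = 0.149, limma). Nck2, another adaptor, named after its value was seen, was 0.88 higher in E1. Src had the largest t for Deaf-1 against control, with -0.24 (unadjusted p = 0.192). A further 6 genes of this list were not analysed here.

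Genes that respond to the ERK pathway downstream of these receptors lay on both sides between the clones, some higher and some lower in E1. Of 18 measured feedback inhibitors and ERK-response genes, 2 were higher and 4 lower in E1 at an unadjusted p under 0.01, a share of 33.3% against 6.95% of all genes. This list and the others were chosen with earlier results of these data known, so such shares describe the lists and test nothing. Of the 18, 16 were above background on all arrays, and over all probe sets with a mean above background the share was 10.1%. By adjusted p no leading probe set of the list passed in the fit with retrovirus as a term. The list median, E1 minus C1, was -0.16, against 0.016 over all genes. Ccnd1, which encodes cyclin D1, read 6.86 with Deaf-1 and 7.04 with control in E1, against 4.54 with Deaf-1 and 4.53 with control in C1. Its difference of 2.42 (standard error 0.15, adjusted p = 0.0529) was 2.57 at 1417419_at. At 1417420_at Ccnd1 read 6.76 and 7.03 in E1 and was below background on both C1 arrays, so that only a lower bound of the difference is known there (adjusted p = 0.0322, limma).

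The lower genes were named after their values were seen. Dusp4, a phosphatase that acts on ERK, read 6.48 and 6.87 in E1, against 8.62 and 8.71 in C1 (difference -1.99, adjusted p = 0.0610). Etv5, an Ets factor induced by FGFs in many tissues, read 5.98 and 6.27 in E1, against 7.74 and 7.65 in C1 (-1.57, adjusted p = 0.0862), and its other probe sets gave -1.28 and -1.39. Spry2, an inhibitor of receptor tyrosine kinase signalling, read 7.01 and 7.19 in E1, against 8.73 and 8.48 in C1 (-1.50, adjusted p = 0.0932) and gave 0.093 at a probe set near background. Dusp6, an ERK phosphatase, read 8.42 and 8.36 in E1, against 9.30 and 9.18 in C1 (-0.85, adjusted p = 0.135). At each of these 4 genes every C1 array lay above every E1 array. Spry4, a relative of Spry2, ran the other way, with 4.67 and 4.63 in E1, against 3.98 and 3.96 in C1 (0.68, adjusted p = 0.169). Its C1 arrays were just above background, and its other probe sets were below background on every array. These adjusted p-values are from limma.

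**Figure D4:**
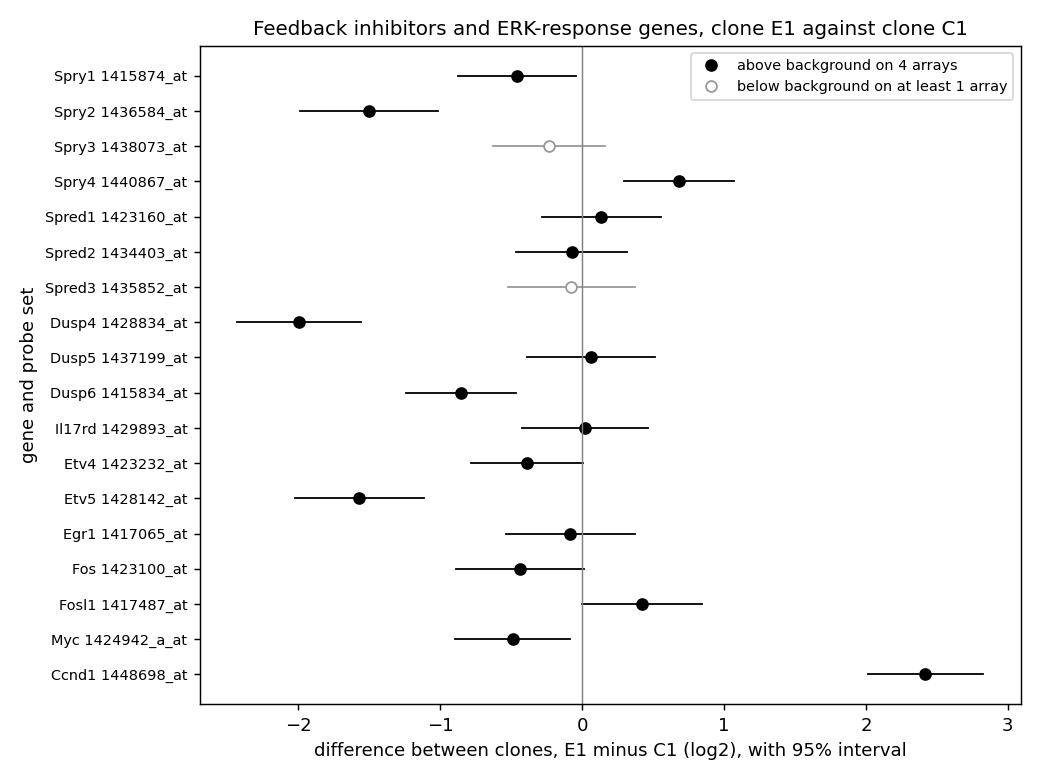
Difference between the clones (E1 minus C1, log2, horizontal axis) for the leading probe set of each of the 18 feedback inhibitors and ERK-response genes, with the 95% interval from limma. Ccnd1 lies farthest right at 2.42, and Dusp4, Etv5, Spry2 and Dusp6 lie farthest left, from -1.99 to -0.85.

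With Deaf-1, none of these 18 genes passed an unadjusted p of 0.01, with or without the block. Egr1, an immediate early gene of the ERK pathway, had the largest t without the block. It read 10.29 with Deaf-1 and 9.53 with control in E1, and 10.20 with Deaf-1 and 9.80 with control in C1, a difference of 0.58 (standard error 0.17, unadjusted p = 0.0216, adjusted p = 1, limma). Both Deaf-1 arrays lay above both control arrays. It was the only gene of the list with an unadjusted p under 0.05 in that fit (0.433% of all probe sets). With clone as a block (0.875% of all probe sets) Fos, another immediate early gene, had the larger t, with an unadjusted p of 0.0152, against 0.0240 for Egr1. Fos, named after its values were seen, read 8.23 with Deaf-1 and 7.41 with control in E1, and 8.50 with Deaf-1 and 8.01 with control in C1, a difference of 0.65 (unadjusted p = 0.0589 without the block). Its Deaf-1 arrays also lay above its control arrays. The list median, Deaf-1 minus control, was -0.065.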

How the data were processed

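RNA from 4 samples was hybridised to 1-colour Affymetrix mouse genome arrays. The deposited values are log2 expression, which the authors computed by RMA. The submitters' processing notes name RMA and limma without versions. RMA compresses differences near background, so changes of dim probe sets are understated. Values ran from 1.75 to 13.63, and array medians from 3.77 to 3.87.

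From the deposited values 64 control probe sets were left out and 45037 tested. Of these, 34945 carry 1 gene symbol in the platform annotation, 932 several and 9160 none, and only the first were named. Probe sets whose names end in _s_at or _x_at can match other transcripts. Differences were fitted with limma 3.58.1 in R 4.3.3 (lmFit, eBayes, two-sided, Benjamini-Hochberg over all 45037). Deaf-1 against control was fitted on all arrays with the clones as biological replicates, as in the study's methods (2 residual degrees of freedom), at an unadjusted p of 0.01. E1 against C1 was fitted with retrovirus as a term (1 residual degree of freedom), at an adjusted p of 0.05, and an unadjusted p of 0.01 was added after the data were seen. Both retroviruses were used in the same clones, so the clone pairs the arrays, and the deviations of same-clone arrays from their group means correlated at 0.54. The change in 1 clone against that in the other has no residual degrees of freedom and was not tested. The fits were also run on simulated arrays with known changes and independent noise. Those for Deaf-1 against control held no clone effect, so they do not test how the pairing by clone affects that fit. Only 4 arrays limit the precision.

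The genes, the 6 pathway lists (85 genes, 78 measured) and the 7 marker lists (51 genes) were chosen with earlier results of these data known. Named were the 10 genes with all their probe sets, Deaf1 and, from each pathway list and comparison, the genes past its threshold, up to the 4 with the largest moderated t, or else the 1 with the largest. Other genes named were chosen after their values were seen. Alternatives were clone as a block, the retrovirus term left out, filters on low values, further normalization, other prior variances, each array left out, probe set types left out and means over the probe sets of a gene.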

Additional observations from a re-analysis of the deposited data

Results flagged for a closer look

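Of the 9 leading probe sets above background on all arrays, 8 moved in opposite directions with Deaf-1 in the clones, and the difference was not tested, since each clone has 1 array per retrovirus. The change in E1 minus the change in C1, on the log2 scale, was -0.37 for Pdgfra (1421917_at), -0.26 for Pdgfrb (1436970_a_at), -0.37 for Pdgfa (1418711_at) and 0.26 for Pdgfc (1449351_s_at). It was -1.03 for Pdgfd (1456532_at), the widest gap of the 8, and 0.35 for Fgfr1 (1425911_a_at), 0.46 for Fgfr2 (1433489_s_at) and -0.17 for Fgf7 (1438405_at). Opposite signs were found at 26545 of all 45037 probe sets, at 14095 of the 22403 with a mean above background and at 11069 of the 18193 leading probe sets. Each of these shares is lower than 8 of 9. In the family itself opposite signs were found at 9 of the 10 leading probe sets, at 16 of all 23 and at 14 of the 19 with a mean above background. The shares of 16 of 23 and 14 of 19 are nearer to those of the whole array than 8 of 9 is.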

How the results depend on the processing

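Between Deaf-1 and control none of the 23 probe sets passed an unadjusted p of 0.01 under any alternative run. Over all probe sets the count of 5 was 11 with clone as a replicate block, 2 among probe sets above background, 1 among those with a mean of at least 6 and 25 with a prior variance that follows intensity. With each array left out in turn it ran from 2 to 47, with 47 when the Deaf-1 array of C1 was left out, 15 for that of E1, 3 for the control of C1 and 2 for the control of E1.

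Between E1 and C1 the count over all probe sets at an adjusted p of 0.05, 49, was 2306 with no replicate block for the retrovirus, and 6 of the 23 passed in that fit in place of 0. It was 414 among probe sets above background (0 of the 23) and 2340 among those with a mean of at least 6 (5 of the 23). It was 1286 after further quantile normalization, 1591 after median centring and 936 after cyclic loess, each with 3 of the 23, and 1696 with a prior variance that follows intensity (5 of the 23). With each array left out it was 0 to 0, with 0 to 0 of the 23. At an unadjusted p of 0.01, 3 to 7 of the 23 passed with each array left out, the fewest without the control array of C1. The cause of these shifts was not tested.

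Signs turned only for differences of at most 0.18 in size. For Deaf-1 minus control, Pdgfb was -0.00057 after quantile normalization, -0.021 after median centring, -0.014 after loess and -0.012 as a mean over probe sets. Fgf7 was 0.0022 after quantile normalization, 0.0037 after loess and 0.00052 as a mean, Pdgfrb was -0.020 after median centring and Fgfr2 was -0.088 as a mean. For E1 minus C1, Pdgfa was -0.0013 after median centring and -0.12 as a mean. The fits with an array left out had neither a clone term for Deaf-1 nor a retrovirus term for the clones. Part of the clone difference thus enters their Deaf-1 estimates. For Fgf7 (1438405_at) the changes within a clone were only -0.12 in E1 and 0.050 in C1. With each array left out, Deaf-1 minus control ran from -0.00013 to 0.35 for Pdgfra, -0.48 to 0.48 for Pdgfrb, -0.16 to 0.052 for Pdgfa, -0.21 to 0.22 for Pdgfb, -0.18 to 0.29 for Pdgfc, -0.41 to 0.73 for Pdgfd, -0.28 to 0.058 for Fgfr1, -0.41 to 0.59 for Fgfr2 and -0.63 to 0.56 for Fgf7. E1 minus C1 ran from -0.35 to 0.017 for Pdgfra, -0.098 to 0.14 for Pdgfa and -0.29 to 0.36 for Fgf10. No sign turned for Fgf7, Pdgfrb, Fgfr2 and Pdgfd between the clones, nor for Fgf10 with Deaf-1.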
